A study of Homo sapiens with 2 samples.

Results

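Lactate leaves a cell together with a proton, and 8 genes whose products carry out this export or buffer the acid it brings were followed in PLC/PRF/5 cells, an established human hepatocellular carcinoma line. They were chosen by symbol and matched by Entrez gene identifier, and they are SLC16A1, SLC16A3, BSG, CA9, CA12, CA2, SLC4A4 and SLC4A7. All 8 were found among the 27685 genes of the deposited files, and all 8 were among the 14450 genes that reached a TPM of 1 in at least 1 library, TPM being a length-corrected level scaled to the same total in each library. One library came from cells kept for 24 h in 6 µM JIB-04, a small molecule that inhibits the Jumonji family of histone lysine demethylases, and the other from cells kept for 24 h in DMSO, its solvent. Both libraries were made from the same line, with no genetic change in either. The control is named DMSO in its title and untreated in another label, and it was taken as the DMSO control. With 1 library per condition no difference below has a replicate check, no test was possible, and a difference between treatments cannot be told apart from one between cultures or library preparations.

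The monocarboxylate transporters MCT1 (SLC16A1) and MCT4 (SLC16A3) move lactate and a proton together across the plasma membrane, and both need the glycoprotein basigin (BSG) to reach the cell surface. Outside the cell, the membrane-bound carbonic anhydrases IX (CA9) and XII (CA12) interconvert carbon dioxide with bicarbonate and protons, and inside the cell carbonic anhydrase II (CA2) does the same. The sodium bicarbonate cotransporters NBCe1 (SLC4A4) and NBCn1 (SLC4A7) bring bicarbonate into cells, where it takes up protons. MCT4 and carbonic anhydrase IX are known for their abundance in hypoxic and highly glycolytic tumors.

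An estimated 23721989 fragments fell on annotated transcripts in the JIB-04 library and 28187793 in the DMSO library, and 13908 and 13893 genes had a TPM of at least 1. The line was checked against 11 hepatocyte and hepatoma markers, all of which passed the minimum of 1 TPM in at least 1 library. APOA1 passed it only with DMSO (0.990 TPM with JIB-04 and 1.34 TPM with DMSO). Alpha-fetoprotein (AFP) had 151 TPM with JIB-04 and 131 TPM with DMSO, whereas albumin (ALB) had only 4.53 and 9.74 TPM. At least 2-fold lower with JIB-04 were APOB (32.9 TPM with JIB-04 and 103 TPM with DMSO, log2 -1.62) and the keratin KRT18 (2214 and 4484 TPM, log2 -1.02). Summed over the 11 markers the level was 5988 TPM with JIB-04 and 9454 TPM with DMSO, and over the 9 markers other than KRT18 and its partner KRT8, which were set aside after their values were seen, it was 1861 and 1757 TPM. The largest part of that second sum was fibrinogen beta (FGB), with 961 TPM with JIB-04 and 771 TPM with DMSO. The sum over the 9 therefore does not give the direction of each marker in it. Of 14 markers of other cell types, 4 passed the minimum, COL1A1 and COL3A1 of fibroblasts among them. The epithelial brush border gene VIL1 had 36.3 TPM with JIB-04 and 160 TPM with DMSO (log2 -2.11), and the macrophage marker CD68 had 137 TPM with JIB-04 and 97.0 TPM with DMSO (log2 0.50). The sum over the 14 was 186 TPM with JIB-04 and 275 TPM with DMSO, or 150.1 and 115 TPM without VIL1, and PTPRC, CDH5, HBB, HBG1 and UMOD were listed at 0 in both libraries. Most of the sum without VIL1 was CD68, so its direction is that of 1 gene. COL1A1 differed the other way, with 10.6 TPM with JIB-04 and 16.0 TPM with DMSO (log2 -0.55). The part of these marker levels in the results was not tested, and in bulk RNA fewer cells of a kind and less RNA per cell cannot be told apart.

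In the JIB-04 library SLC16A3, CA9 and CA12 were at least 2-fold higher than in the DMSO library, SLC4A4 was at least 2-fold lower, and SLC16A1, BSG, CA2 and SLC4A7 lay within 2-fold. Ratios are given on the log2 scale as JIB-04 over DMSO, after 1 was added to each TPM. The same limit was passed upward by 5.99% and downward by 6.88% of all 14450 genes. The 3 of 8 genes that were higher (37.5%) stood above that background share, and the 1 of 8 that was lower (12.5%) rests on a single gene. Because the 8 genes were chosen with earlier results of these data known, these shares are a description and not evidence about the set. The split of all such genes was 46.5% higher with TPM as deposited and 64.4% higher when ratios were centred on well expressed genes, a shift of -0.15 on the log2 scale. The median log2 ratio was 0.15 over the 8 genes and -0.15 over all genes described. Together the 8 genes held 2281 TPM with JIB-04 and 1111 TPM with DMSO, most of it BSG. Intervals given with a ratio are 95% exact binomial intervals on estimated fragments and cover counting error only.

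**Figure D1:**
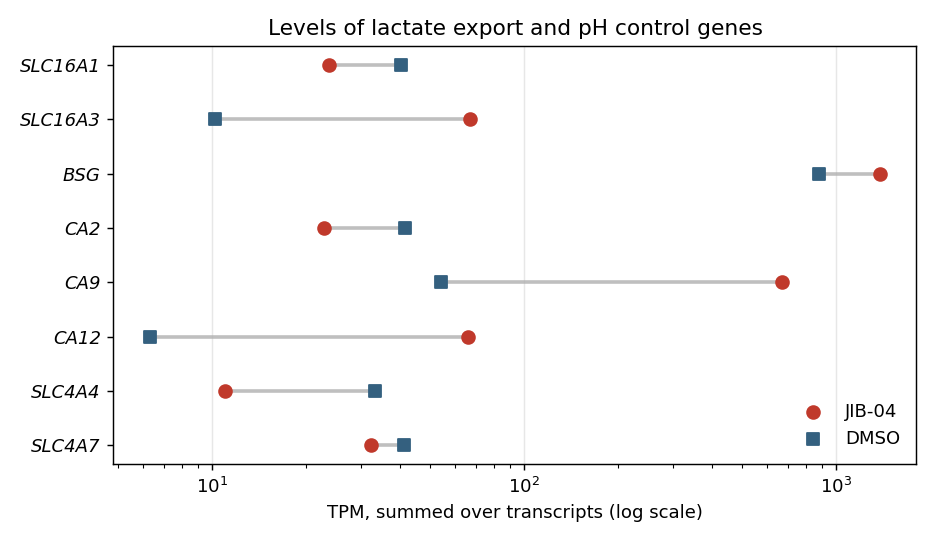
Gene level in TPM (log axis) of the 8 genes in the JIB-04 library (red circles) and the DMSO library (blue squares), 1 point per library with no error bar because there is 1 library per condition. CA9 stood at 672 TPM with JIB-04 against 54.1 TPM with DMSO, and BSG was the most abundant of the 8 in both libraries.

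**Figure D2:**
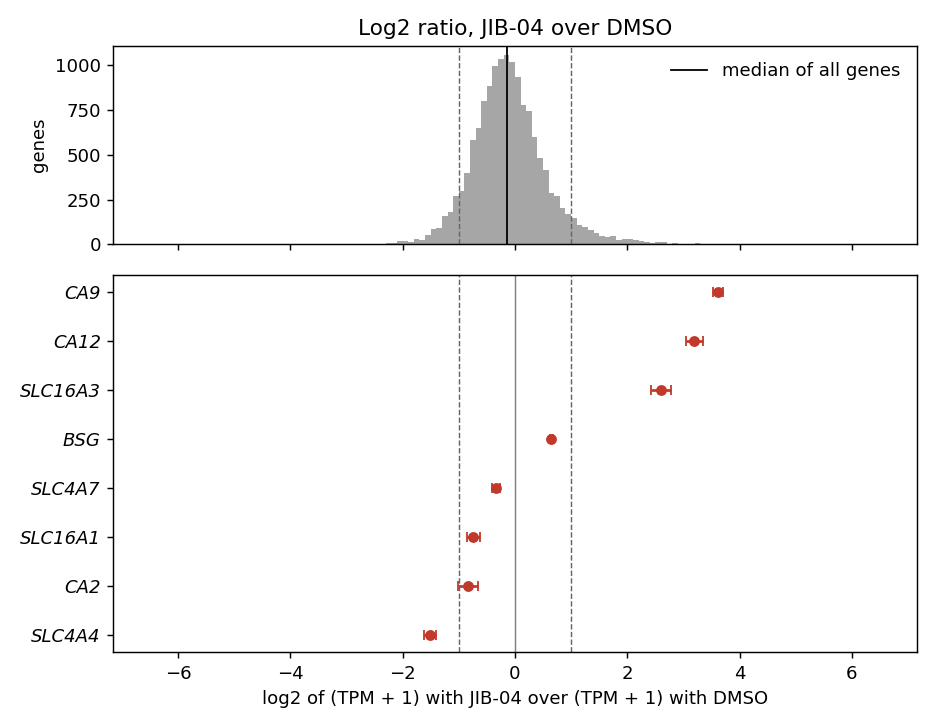
Log2 ratio of TPM + 1, JIB-04 over DMSO, for the 8 genes with 95% intervals for counting error, beside the distribution of the same ratio over all genes described. CA9, CA12 and SLC16A3 lie above 1, SLC4A4 lies below -1, and the other 4 genes lie between these limits.

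To show the DNA at the starts of genes past 2-fold, 250 bases before the start of CA9, SLC16A3 and SLC4A4 as RefSeq places it are printed, taken from RefSeq on the build GRCh38.p14 and written 5′ to 3′ on the strand of the gene. Capitals mark the letters ACGTG or GCGTG, the core to which hypoxia-inducible factors bind, read on either strand, so that CACGT is also marked. The window of CA9 is chr9:35673678-35673927 on the plus strand, that of SLC16A3 chr17:82228792-82229041 on the plus strand, and that of SLC4A4 chr4:71186515-71186764 on the plus strand.
CA9: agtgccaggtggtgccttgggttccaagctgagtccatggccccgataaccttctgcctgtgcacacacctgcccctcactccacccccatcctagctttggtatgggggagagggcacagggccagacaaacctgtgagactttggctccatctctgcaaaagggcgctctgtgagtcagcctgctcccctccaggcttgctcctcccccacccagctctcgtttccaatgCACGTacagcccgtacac
SLC16A3: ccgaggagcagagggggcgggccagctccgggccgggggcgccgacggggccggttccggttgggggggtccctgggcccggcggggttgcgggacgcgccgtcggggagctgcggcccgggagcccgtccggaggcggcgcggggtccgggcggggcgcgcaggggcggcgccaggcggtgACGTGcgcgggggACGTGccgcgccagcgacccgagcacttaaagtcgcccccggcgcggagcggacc
SLC4A4: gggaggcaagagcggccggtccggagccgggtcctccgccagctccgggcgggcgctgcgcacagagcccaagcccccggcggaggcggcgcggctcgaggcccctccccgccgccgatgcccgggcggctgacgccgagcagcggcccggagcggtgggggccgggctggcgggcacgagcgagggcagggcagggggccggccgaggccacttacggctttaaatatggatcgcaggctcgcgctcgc

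In these windows CA9 had 1 match to ACGTG, on the minus strand, with its bases 18 to 14 before the start in RefSeq. GENCODE v29 places the start of CA9 further upstream, at base 35673856 of the same build, so there this match lies after the start. SLC16A3 had 2 matches to ACGTG on the plus strand, at 68 to 64 and at 55 to 51 bases before the start, in the window that belongs to its most abundant transcript. Of the other windows of SLC16A3, 1 had 3 matches to GCGTG, 1 had 1 such match and 2 had 0. The 1 window of CA12 had 1 match to GCGTG and is not printed, because GENCODE v29 places the start of its most abundant transcript at base 63382161, upstream of that window. The SLC4A4 window had 0 matches. Of 35116 RefSeq windows of this length 18.5% held ACGTG, 32.2% held GCGTG, 43.2% held either and 19.4% held 2 or more matches. A match is therefore common, and it is a description of the letters and not evidence of binding. BSG had 6 matches in 1 of its 2 windows, where 1 CACGTG was counted on both strands, and SLC4A7 had 2 matches to GCGTG in 1 of its 2 windows. All 5 windows of SLC4A4 had 0 matches, and no window was printed for SLC16A1.

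SLC16A3 was higher and SLC16A1 lower with JIB-04, a difference that for SLC16A1 lay in its last exon, and the more abundant of the pair was SLC16A3 with JIB-04 and SLC16A1 with DMSO. SLC16A3, which encodes MCT4 (Entrez 9123, hg19 chromosome 17, bases 80186282 to 80197375, plus strand), had 67.1 TPM with JIB-04 and 10.2 TPM with DMSO. Its TPM was 6.56 times as high and its log2 ratio 2.60 (interval 2.42 to 2.78, from 1347 and 250 fragments), which ranked 62 of the 14450 genes from the highest. SLC16A1, which encodes MCT1 (Entrez 6566, hg19 chromosome 1, bases 113454470 to 113498975, minus strand), had 23.7 TPM with JIB-04 and 40.2 TPM with DMSO, giving -0.74 on the log2 scale (interval -0.85 to -0.63, 911 and 1895 fragments). SLC16A1 therefore stayed within 2-fold, and its value rests on 1 exon, as described with the exon levels.

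Within each library the TPM of SLC16A3 was 2.83 times that of SLC16A1 with JIB-04 and 0.254 times with DMSO. The share of SLC16A3 in the sum of both was 73.9% with JIB-04 and 20.3% with DMSO. With the last exon of each gene left out, the ratio was 1.25 with JIB-04 and 0.199 with DMSO, and the share 55.6% and 16.6%. The sum itself was 90.8 TPM with JIB-04 and 50.5 TPM with DMSO.

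BSG, which encodes basigin (Entrez 682, hg19 chromosome 19, bases 571277 to 583493, plus strand), had 1385 TPM with JIB-04 and 884 TPM with DMSO. Its log2 ratio was 0.65 (interval 0.62 to 0.68, from 23707 and 18366 fragments), and it ranked 1651 of 14450 from the highest. The interval is narrow because BSG was deeply covered, and it does not bear on the spread between cultures. BSG exceeded the summed transporters 15.3-fold with JIB-04 and 17.5-fold with DMSO, a difference of -0.20 on the log2 scale. By single transporter, BSG was 58.5 and 22.0 times SLC16A1 and 20.7 and 86.4 times SLC16A3 with JIB-04 and with DMSO. The ratio to SLC16A1 also depends on the last exon, and without the last exons it was 27.8 with JIB-04 and 18.5 with DMSO.

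The 2 extracellular carbonic anhydrases were among the highest ratios in the data, and the cytosolic enzyme was lower with JIB-04. CA9 (Entrez 768, hg19 chromosome 9, bases 35673915 to 35681154, plus strand) had 672 TPM with JIB-04 and 54.1 TPM with DMSO. Its TPM was 12.4 times as high, or 3.61 on the log2 scale (interval 3.52 to 3.70, 10275 and 1001 fragments), which ranked 18 of 14450. CA12 (Entrez 771, hg19 chromosome 15, bases 63613577 to 63674365, minus strand) had 66.1 TPM with JIB-04 and 6.33 TPM with DMSO. Its TPM was 10.5 times as high, or 3.20 on the log2 scale (interval 3.05 to 3.35, 2785 and 315 fragments), which ranked 30. CA9 exceeded CA12 10.2-fold with JIB-04 and 8.56-fold with DMSO, so their order was the same in both libraries.

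CA2 (Entrez 760, hg19 chromosome 8, bases 86376131 to 86393721, plus strand) had 22.9 TPM with JIB-04 and 41.6 TPM with DMSO. Its log2 ratio of -0.84 (interval -1.01 to -0.66, from 374 and 824 fragments) lay within 2-fold. The interval reached past 2-fold, so at this depth counting error alone does not place CA2 on one side of that limit. Of the summed level of the 3 enzymes, 761 TPM with JIB-04 and 102 TPM with DMSO, CA9 held 88.3% with JIB-04 and 53.1% with DMSO, CA12 held 8.68% and 6.20%, and CA2 held 3.0% and 40.7%. CA9 was 29.4 times CA2 with JIB-04 and 1.3 times CA2 with DMSO.

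**Figure D3:**
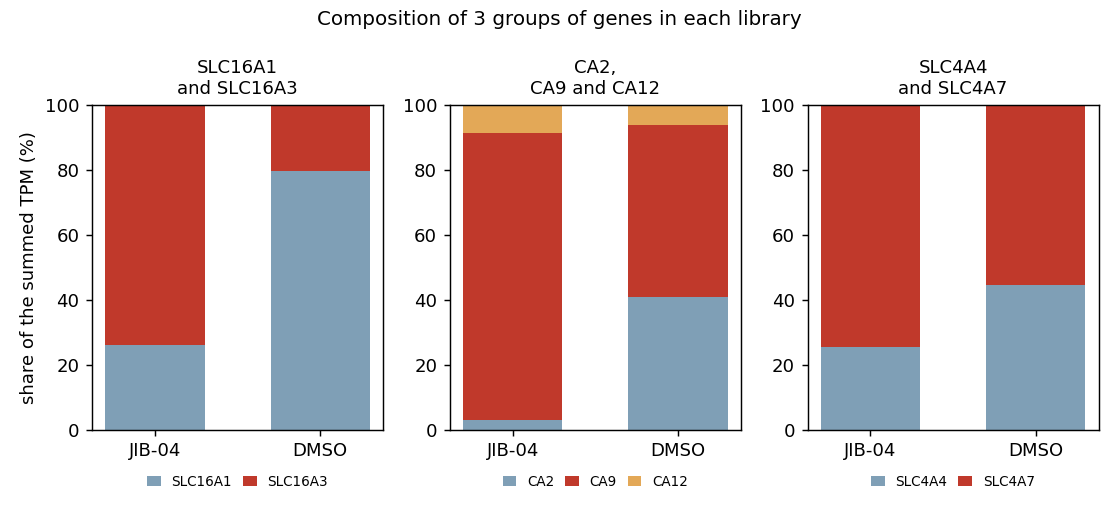
Share of the summed TPM held by each gene within the lactate transporters, the carbonic anhydrases and the bicarbonate cotransporters, with the JIB-04 library left of the DMSO library in each pair of bars. SLC16A3 held 73.9% against 20.3% of the transporters, CA9 88.3% against 53.1% of the anhydrases, and SLC4A4 25.4% against 44.6% of the cotransporters, all exons included.

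SLC4A4 was lower with JIB-04 by more than 2-fold, except when levels were divided by ACTB (log2 -0.96). SLC4A7 was lower by less, a direction that turned when levels were divided by ACTB (0.20) or read from the most abundant transcript alone (0.45). SLC4A4, which encodes NBCe1 (Entrez 8671, hg19 chromosome 4, bases 72053003 to 72437804, plus strand), had 11 TPM with JIB-04 and 33.3 TPM with DMSO. The DMSO level was 3.02 times the JIB-04 level, and the log2 ratio of -1.51 (interval -1.62 to -1.41, from 831 and 3047 fragments) ranked 188 from the lowest. SLC4A7, which encodes NBCn1 (Entrez 9497, hg19 chromosome 3, bases 27414212 to 27525911, minus strand), had 32.4 TPM with JIB-04 and 41.4 TPM with DMSO, giving -0.34 on the log2 scale (interval -0.42 to -0.27, 2455 and 3762 fragments). Since the median over all genes was -0.15, SLC4A7 was 1 of many genes with a value of that size, at rank 9294. The sum of both cotransporters was 43.4 TPM with JIB-04 and 74.7 TPM with DMSO, and SLC4A4 held 25.4% of it with JIB-04 and 44.6% with DMSO. With the last exons left out SLC4A4 held 21.0% with JIB-04 and 29.4% with DMSO, since the last exon of SLC4A7 differs from its others.

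Most of the genes were read from 1 principal transcript in both libraries. SLC16A3 was assigned mostly to NM_004207, with 65.0 TPM with JIB-04 and 6.89 TPM with DMSO, and the first exon that belongs to it alone had a level of 16.3 and 1.92 on the TPM scale. BSG was mostly NM_198589, the form known as basigin-2, with 1211 TPM with JIB-04 and 740 TPM with DMSO. Basigin-1 (NM_001728), a form known from the retina, was assigned 2.77 TPM with JIB-04 and 11.5 TPM with DMSO. The exon found only in basigin-1 had a level of 2.37 with JIB-04 and 1.80 with DMSO, so these readings differ in direction. CA12 was mostly NM_001218, with 55.1 TPM with JIB-04 and 4.59 TPM with DMSO, and a form lacking 1 exon of 33 bases, NM_206925, had 7.79 and 0.993 TPM. Thus the higher levels of SLC16A3 and CA12 were found in the transcript that carried most of each gene.

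SLC4A4 was mostly NM_001098484, which encodes NBCe1-B, the form of most tissues, with 9.36 TPM with JIB-04 and 31.1 TPM with DMSO. The kidney form NBCe1-A, NM_003759, was assigned 1.64 TPM with JIB-04 and 2.16 TPM with DMSO, but its own first exon had a level of only 0.326 and 0.366. SLC4A7 was spread over 13 annotated transcripts, and its most abundant, NM_001258379, had 13.9 TPM with JIB-04 and 9.94 TPM with DMSO. Transcripts annotated as noncoding took 26.4% of SLC4A7 with JIB-04 and 37.2% with DMSO, and over its coding transcripts alone the log2 ratio was -0.12. StringTie estimates how reads that several transcripts share are divided, so these splits are less certain than the gene levels. None of the 8 genes shared exonic bases with another annotated gene on either strand.

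Exon levels were taken from the coverage of each exon, scaled to TPM, along the most abundant transcript. All 5 exons of SLC16A3 were higher with JIB-04 (log2 2.44 to 2.63), as were all 8 of BSG (0.57 to 0.69), all 11 of CA9 (3.45 to 3.96) and all 11 of CA12 (2.76 to 3.35). All 26 exons of SLC4A4 were lower (-1.86 to -0.92). These 5 genes therefore differed in 1 direction along their whole length.

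SLC16A1 did not. Its first 4 exons had levels of 15.2, 39.2, 49.6 and 64.1 with JIB-04 and 18.1, 35.3, 54.0 and 60.8 with DMSO, and the levels of the libraries lay close to each other. Its last exon, of 2318 bases, had a level of 6.36 with JIB-04 and 36.0 with DMSO, a log2 ratio of -2.33. Over the other exons together the level was 48.9 with JIB-04 and 47.4 with DMSO, a log2 ratio of 0.04, so the lower gene level of SLC16A1 rests on the last exon. In the GENCODE v29 annotation of GRCh38 the last exon of SLC16A1 holds 272 coding bases of 2319, and the rest is untranslated. Among the 10381 genes that had 3 or more exons and averaged 5 TPM or more, the difference between the last exon and the others was -2.37 for SLC16A1, rank 67 from the lowest, against a median of -0.06, and 3.08% of genes were at -1 or below.

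SLC4A7 showed the opposite arrangement. Of its 25 exons 24 were lower with JIB-04 (-1.50 to -0.26), and the last, of 4125 bases, had a level of 18.4 with JIB-04 and 9.32 with DMSO, a log2 ratio of 0.91. Without that exon the level was 47.3 with JIB-04 and 76.3 with DMSO, a log2 ratio of -0.68, and the difference of 1.59 between the last exon and the others ranked 106 from the highest, where 1.69% of genes were at 1 or above. CA2 was lower in all 7 exons, most in the first (4.92 with JIB-04 and 25.7 with DMSO, log2 -2.18) and the last (-1.05), and by -0.46 to -0.68 in the 5 between. These exon comparisons were chosen after the exon values had been seen, and what lies behind them was not tested.

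**Figure D4:**
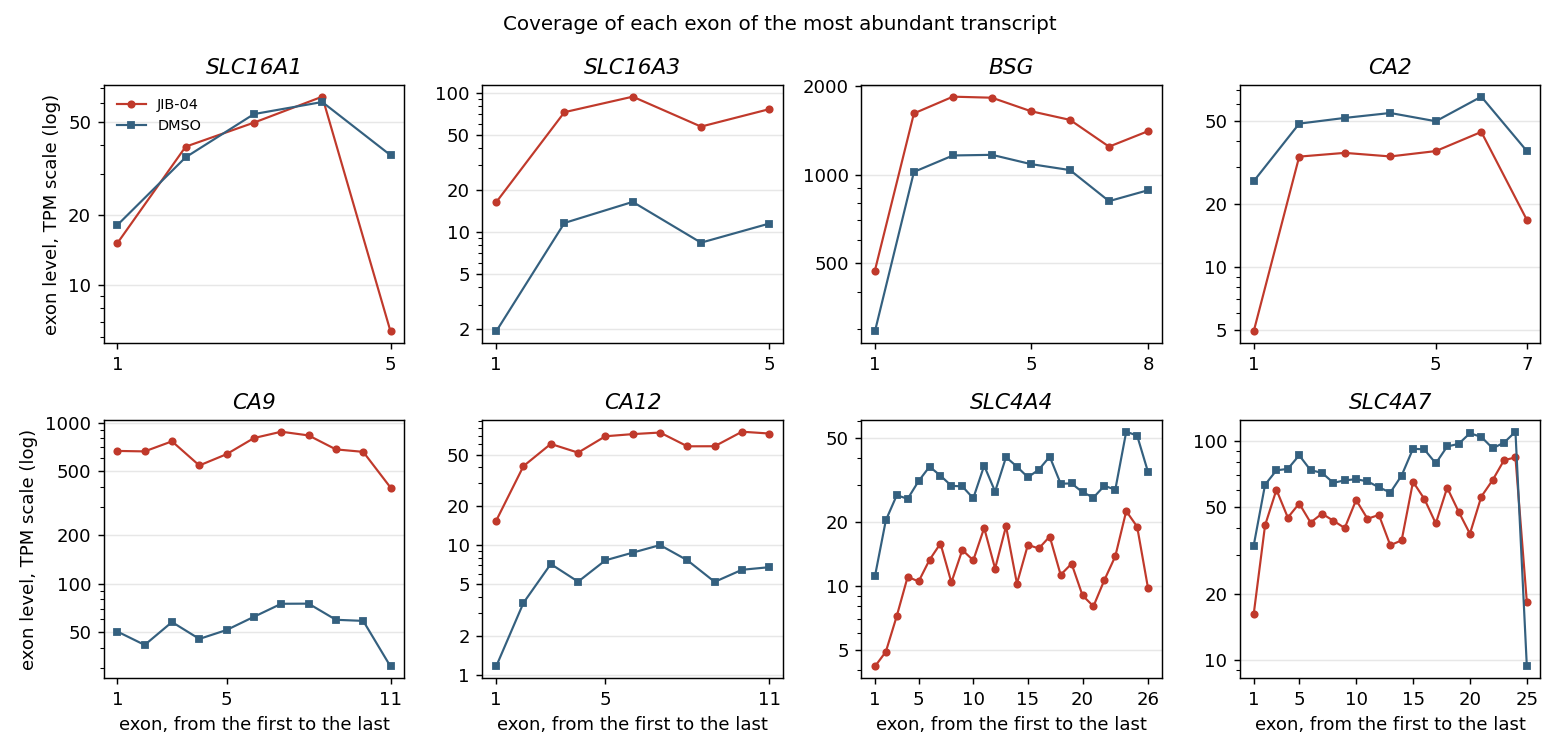
Level of each exon (coverage scaled to TPM, log axis) along the most abundant transcript of the 8 genes, from the first exon to the last, in the JIB-04 library (red circles) and the DMSO library (blue squares). The lines of SLC16A1 run together up to its last exon, where the level was 6.36 against 36.0, and those of SLC4A7 cross at its last exon.

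Genes that work beside these 8 were mostly within 2-fold, as were most of all 14450 genes. Of all 14450, 5.99% were higher and 6.88% lower past that limit, so a count of 0 in a short list is no contrast with the 8 genes. Of 14 other monocarboxylate transporters 7 were described and 0 passed 2-fold, with a median log2 ratio of -0.34, and SLC16A4 had 31.9 TPM with JIB-04 and 16.1 TPM with DMSO (0.94) while SLC16A5 had 23.5 and 43.9 TPM (-0.87). The other chaperones of these transporters, neuroplastin (NPTN, 230 TPM with JIB-04 and 193 TPM with DMSO) and embigin (EMB, 1.00 and 0.978 TPM), were also within 2-fold. Lactate dehydrogenase A (LDHA), which makes lactate from pyruvate, had 2374 TPM with JIB-04 and 826 TPM with DMSO (1.52), and LDHB had 1483 and 2137 TPM (-0.53). LDHA was thus the 1 of 3 described lactate dehydrogenases past 2-fold.

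Of 12 other genes of the carbonic anhydrase family 3 were described and 0 passed 2-fold, and among the family genes described CA9 and CA12 were the ones past that limit. Of all described genes 5.99% were higher and 6.88% lower past it. A count of 0 in a list this short therefore does not set CA9 and CA12 apart from their family. CA5B, a mitochondrial form, had 11.4 TPM with JIB-04 and 6.33 TPM with DMSO (0.76). Of 8 other members of the SLC4 family 3 were described and 0 passed 2-fold, and the anion exchanger SLC4A2 had 192 TPM with JIB-04 and 255 TPM with DMSO (-0.41). All 24 of 24 listed genes induced by hypoxia through HIF were at least 2-fold higher with JIB-04 (median 2.03), among them NDRG1 (4.34) and HK2 (3.81). LDHA stands in that list as well, and the lists were chosen with these data known, so these counts are a description and not independent evidence.

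**Figure D5:**
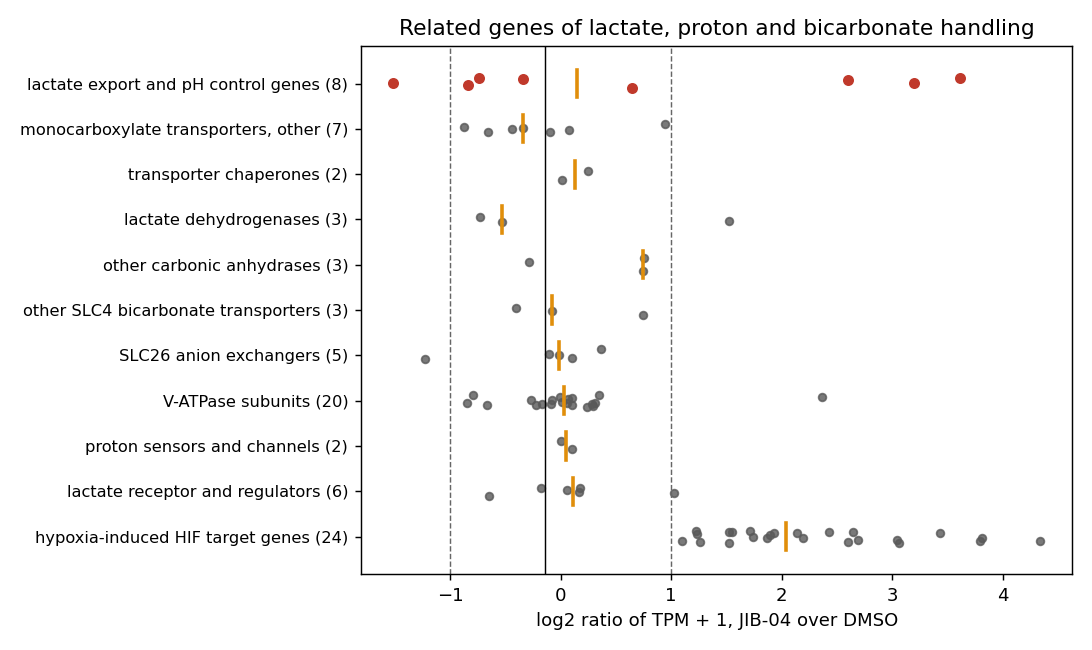
Log2 ratio of TPM + 1, JIB-04 over DMSO, for the described genes of the related lists, sodium proton exchangers left out, 1 point per gene with the list's median as an orange bar, the 8 genes of lactate export and pH control in red on top, the median of all genes as a solid line and the 2-fold limits as dashed lines. The 24 genes induced by hypoxia all lie above 1, and the lists of other monocarboxylate transporters, carbonic anhydrases and SLC4 family members have no gene past 2-fold.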

How the data were processed

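RNA of PLC/PRF/5 cells was sequenced from stranded mRNA libraries, 1 after JIB-04 and 1 after DMSO. Per the labels, the authors' processing ran HISAT2 2.0.5 and StringTie 1.3.3b on hg19, with Bowtie2 2.2.6 also named and with Trimmomatic 0.32 and FastQC 0.11.5 for the reads. The values the authors deposited are the coverage, FPKM and TPM of annotated RefSeq transcripts, with coverage for each exon. The file headers show a strand setting and abundance estimated for annotated transcripts only.

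TPM was summed over the 63714 transcripts by Entrez identifier, and 27559 of 27685 identifiers had a symbol in RefSeq. A gene was described if 1 or both libraries reached 1 TPM. The log2 ratio used a pseudocount of 1, so ratios of genes near that level are drawn toward 0, and 2-fold was the limit for higher or lower. The number of fragments was estimated by dividing aligned bases (coverage multiplied by length) by 202, for 2 mates of 101 bases, and counting intervals are Clopper-Pearson intervals at 95%. No p-value was computed, since each condition has 1 library. All members were named, and from each related list the 2 highest and 2 lowest ratios with a mean TPM of at least 5 could be named. One result of the sodium proton exchangers is not reported here. The members and lists were chosen with earlier results of these data known. Promoter windows came from RefSeq (GRCh38.p14) and were used for letters only, with no coordinates carried between builds. The procedure was tested on simulated data that held counting error only, so that test does not bear on differences between cultures or library preparations.

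Alternatives were FPKM in place of TPM, pseudocounts of 0.1 and 5, a minimum TPM of 5 or none, limits of 1.5-fold and 3-fold, scaling to the median, quantile normalization, division by ACTB and the most abundant transcript. Leaving out the last exon, noncoding transcripts or single markers was added after seeing the data. The software was SciPy 1.17.1, pandas 2.3.3, numpy 2.4.6 and matplotlib 3.10.9 under Python 3.11.15.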

Additional observations from a re-analysis of the deposited data

How the results depend on the processing

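The 3 higher genes (SLC16A3, CA9, CA12) stayed at least 2-fold higher under each alternative that gives a log2 ratio for a gene, with ranges of 2.24 to 3.15 for SLC16A3, 3.52 to 4.16 for CA9 and 2.65 to 3.74 for CA12. SLC4A4 ranged from -1.63 to -0.96 and missed 2-fold when divided by ACTB, whose own log2 ratio was -0.55, while BSG passed it there (1.2). SLC4A7 ranged from -0.36 to 0.45 and changed sign in 2 of 7 alternatives, division by ACTB (0.20) and the most abundant transcript (0.45), and the cause was not tested. SLC16A1 ranged from -0.76 to -0.19 and CA2 from -0.86 to -0.29. The number of the 8 genes that were higher was 4 at a limit of 1.5-fold and 3 at 3-fold, and the number lower was 3 at 1.5-fold and 0 at 3-fold. Over all genes the number higher was 439 with a pseudocount of 5, 1853 at 1.5-fold and 318 at 3-fold, and the number lower was 409 with a pseudocount of 5, 627 when ratios were centred on well expressed genes, 3030 at 1.5-fold and 154 at 3-fold, against 865 and 994 as reported. With the last exon left out, an alternative chosen after seeing the data, the log2 ratio was 0.04 for SLC16A1 and -0.68 for SLC4A7, with counts of 3 higher and 1 lower. In the same way the ratio of SLC16A3 to SLC16A1 was 1.25 with JIB-04, that of BSG to SLC16A1 27.8 with JIB-04 and that of SLC4A4 to SLC4A7 0.417 with DMSO, against 2.83, 58.5 and 0.805 with all exons. No paired analysis was possible because each condition has 1 library, and no replicate could be left out. Depth limits SLC16A3, CA12 and CA2 most, which had 250, 315 and 374 fragments in the library that held fewer of them.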

Other observations

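Other genes that move protons or bicarbonate were mostly within 2-fold, as were most of all genes described. Past that limit 5.99% of all genes were higher and 6.88% lower, so the small counts below say little about these families. Of 25 subunits of the vacuolar proton pump (V-ATPase), which acidifies lysosomes and endosomes, 20 were described, with a median log2 ratio of 0.03. Among those with a mean TPM of at least 5, ATP6V0E1 (0.35) and ATP6V1B2 (0.31) were highest, and ATP6V0A2 had 12.1 TPM with JIB-04 and 22.5 TPM with DMSO (-0.85). The 1 subunit past 2-fold was ATP6V1C2, with 5.55 TPM with JIB-04 and 0.268 TPM with DMSO (2.37), and it was chosen after its values were seen. Of 11 SLC26 anion exchangers 5 were described, and 1 was at least 2-fold lower, the sulfate transporter SLC26A2, with 5.45 TPM with JIB-04 and 14.1 TPM with DMSO (-1.23). Of 9 proton sensors and channels 2 were described and 0 passed 2-fold.

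SLC9A7, a sodium proton exchanger of the Golgi, was at least 2-fold lower, with 4.72 TPM with JIB-04 and 10.8 TPM with DMSO. Its log2 ratio was -1.045 (interval -1.18 to -0.91), so counting error alone does not place SLC9A7 on one side of the 2-fold limit. Among 6 genes for a lactate receptor and regulators of these transporters, the kinase OXSR1 had 75.6 TPM with JIB-04 and 36.6 TPM with DMSO (1.03, interval 0.95 to 1.11). Counting error alone does not place OXSR1 on one side of the 2-fold limit either. The lactate receptor HCAR1 had 8.80 TPM with JIB-04 and 7.69 TPM with DMSO (0.17). AHCYL1, which encodes IRBIT, a binding partner of NBCe1-B, had 57.0 TPM with JIB-04 and 89.9 TPM with DMSO (-0.65).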
